A study of Mus musculus with 15 samples.

Results

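The cytosolic ribosomal protein genes encode the proteins of the ribosome that translates nuclear messenger RNA. They were taken from the gene symbols as every name of Rpl or Rps followed by a digit, together with Rplp0, Rplp1, Rplp2 and Rpsa. Of the 96 symbols so matched, 10 belonged to Rps6k kinases and 1, Rps4y2, to an annotated pseudogene, which left 85 of the 20418 symbols in the files. They comprised 43 core proteins of the large subunit, 31 of the small subunit, the 3 stalk proteins, 6 paralogs of core proteins (Rpl3l, Rpl10l, Rpl22l1, Rpl36al, Rpl39l and Rps27l) and 2 members that carry such a name without being ribosomal subunits (Rpl7l1 and Rps19bp1). Each symbol was represented by its transcript with the highest mean read count.

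A ribosome consists of a small subunit, which reads the messenger RNA, and a large subunit, which joins the amino acids, and it holds one copy of nearly every one of these proteins. Their messenger RNAs belong to the terminal oligopyrimidine class, which begin with a run of C and U bases and are translated under the control of the mTOR pathway. The genes are also known for their many processed pseudogenes, intronless copies scattered over the genome that resemble the messenger RNA closely.

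RNA of whole mouse eyes with their eyelids was sequenced after poly(A) selection in a study of the transcription factor Egr1 in eyelid development. An Egr1-/- line from C57BL/6 was backcrossed to BALB/c. The adult groups were 1 wild-type library and 2 libraries labelled Egr1-/-, and the newborn groups were 2 wild-type and 2 Egr1-/- libraries. At day 3 both eyes of each of 4 mice were sequenced, namely 4 open and 2 closed eyes of 3 Egr1-/- mice (E24, E29 and E32) and 2 closed eyes of 1 Egr1+/- mouse (E28). E24 and E29 each had 1 open and 1 closed eye. No animals are named for the adult and newborn libraries, nor is the state of their eyelids, so the spread among them may be technical. Outside the comparison of open and closed eyes, p-values reflect the spread within groups, pooled over all adult and newborn libraries and day 3 mice.

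Libraries held between 20334849 and 43907093 reads in transcripts, and no libraries were identical. Egr1 reads were higher in libraries labelled knockout than in those labelled wild type or heterozygous at each age. The scaled level (CPM, each library scaled to the same total after TMM normalization) was 33.0 in the adult wild type against 256 and 184 in the adult libraries labelled knockout, and 46.1 and 60.7 against 214 and 274 in newborns. At day 3 it was 99.3 and 110 in the heterozygous eyes against 157 to 367 in the labelled-knockout eyes. The labels do not say which part of the gene is deleted, so these reads cannot tell whether a label is right. Libraries are therefore called by their labels below. Tissue markers were present at all ages. Summed rod photoreceptor markers ran from 24310 to 48890 CPM in adults, from 78.0 to 1201 in newborns and from 48.9 to 1175 at day 3. Summed lens markers were at 528 CPM in newborn labelled-knockout replicate 1 and at 62820 or more in the other newborns. Reads in transcripts divided by the authors' library total lay between 1.11 and 1.12 in all 8 day 3 libraries, between 0.995 and 1.05 in 6 adult and newborn libraries, and at 0.756 in newborn wild-type replicate 1. Age and the set in which libraries were made cannot be told apart, since no label or header names a batch. In whole tissue, fewer cells of a type and less RNA per cell cannot be told apart either.

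The bases around the transcription start are shown for members with some of the largest age differences below, and for Rps15a, which had none that passed between adult and newborn labelled knockouts. Each line runs from 15 bases before the RefSeq start to 14 bases after it (GRCm38.p6, on the gene's strand), and capitals mark the run of C and T bases that holds the start base.
Rpl24 (chr16:55966260-55966289, plus strand): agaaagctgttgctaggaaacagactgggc
Rps6 (chr4:86857353-86857382, minus strand): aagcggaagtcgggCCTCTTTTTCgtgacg
Rps10 (chr17:27635230-27635259, minus strand): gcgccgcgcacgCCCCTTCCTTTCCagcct
Rpl28 (chr7:4792950-4792979, plus strand): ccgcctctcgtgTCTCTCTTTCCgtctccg
Rpl35 (chr2:39005117-39005146, minus strand): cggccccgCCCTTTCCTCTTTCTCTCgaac
Rps15a (chr7:118116133-118116162, minus strand): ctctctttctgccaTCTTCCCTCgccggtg
A run of at least 5 C or T bases over the annotated start was found in 20 of the 64 members with an entry in the RefSeq promoter table (31.2%). It was found in 6.06% of 66 mitochondrial ribosomal protein genes and in 11.8% of all 27025 genes of the table. The median log2 difference between adult and newborn labelled knockouts was -1.65 in the 20 members with such a run and -2.34 in the other 44. Some members with large falls whose starts are not shown had no such run. The run was 0 bases in Rpl5 (-6.21), 4 in Rps28 (-6.09) and 0 or 1 in Rpl10a (-4.72). An annotated start can lie some bases away from the true one, and a missing run says nothing of the messenger RNA.

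Ribosomal protein genes were lower in adult eyes than in newborn and day 3 eyes. They took 0.387% of gene reads in the adult wild type and 0.352% and 0.44% in the adult labelled knockouts. In the 4 newborn libraries they took between 0.926% and 1.20%, and in the 8 day 3 libraries between 0.65% and 1.07%, with a median of 0.78%. No adult library overlapped any younger one. The median core protein, on a scale of CPM per kb of exon, had a level between 6.46 and 8.11 in adults, between 50.3 and 59.2 in newborns and between 36.3 and 48.4 at day 3. In 79 of the 85 members every adult library lay below every newborn library, and in 59 every adult library also lay below every day 3 library. Over all 17980 genes tested these counts were 4250 and 3125.

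**Figure D1:**
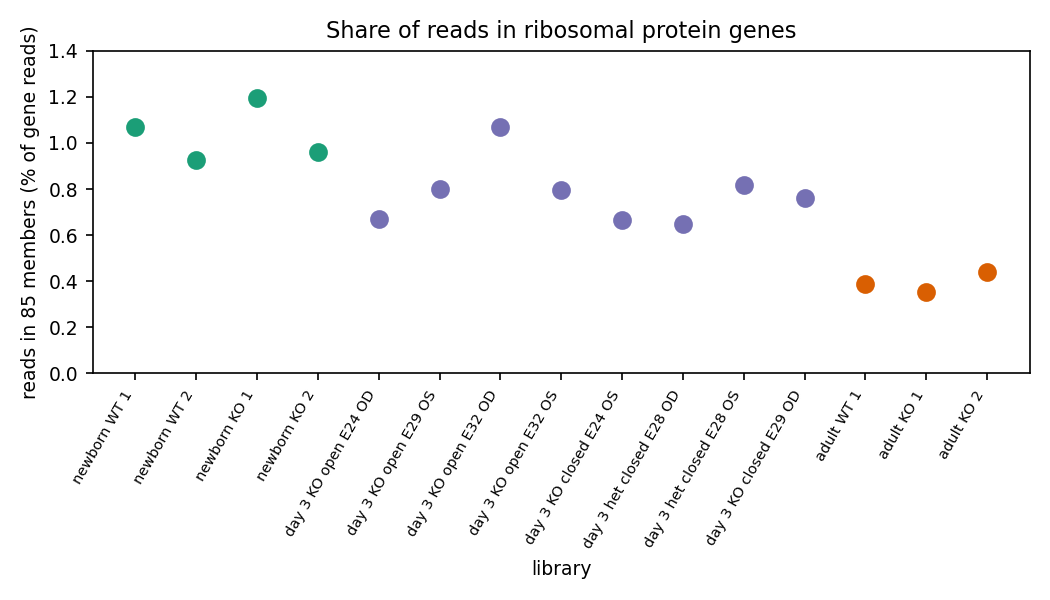
Reads of the 85 ribosomal protein genes as a percentage of all gene reads (vertical axis), 1 point per library, with newborn libraries at left, day 3 in the middle and adults at right. The adult points lie between 0.352% and 0.44%, below all others.

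**Figure D2:**
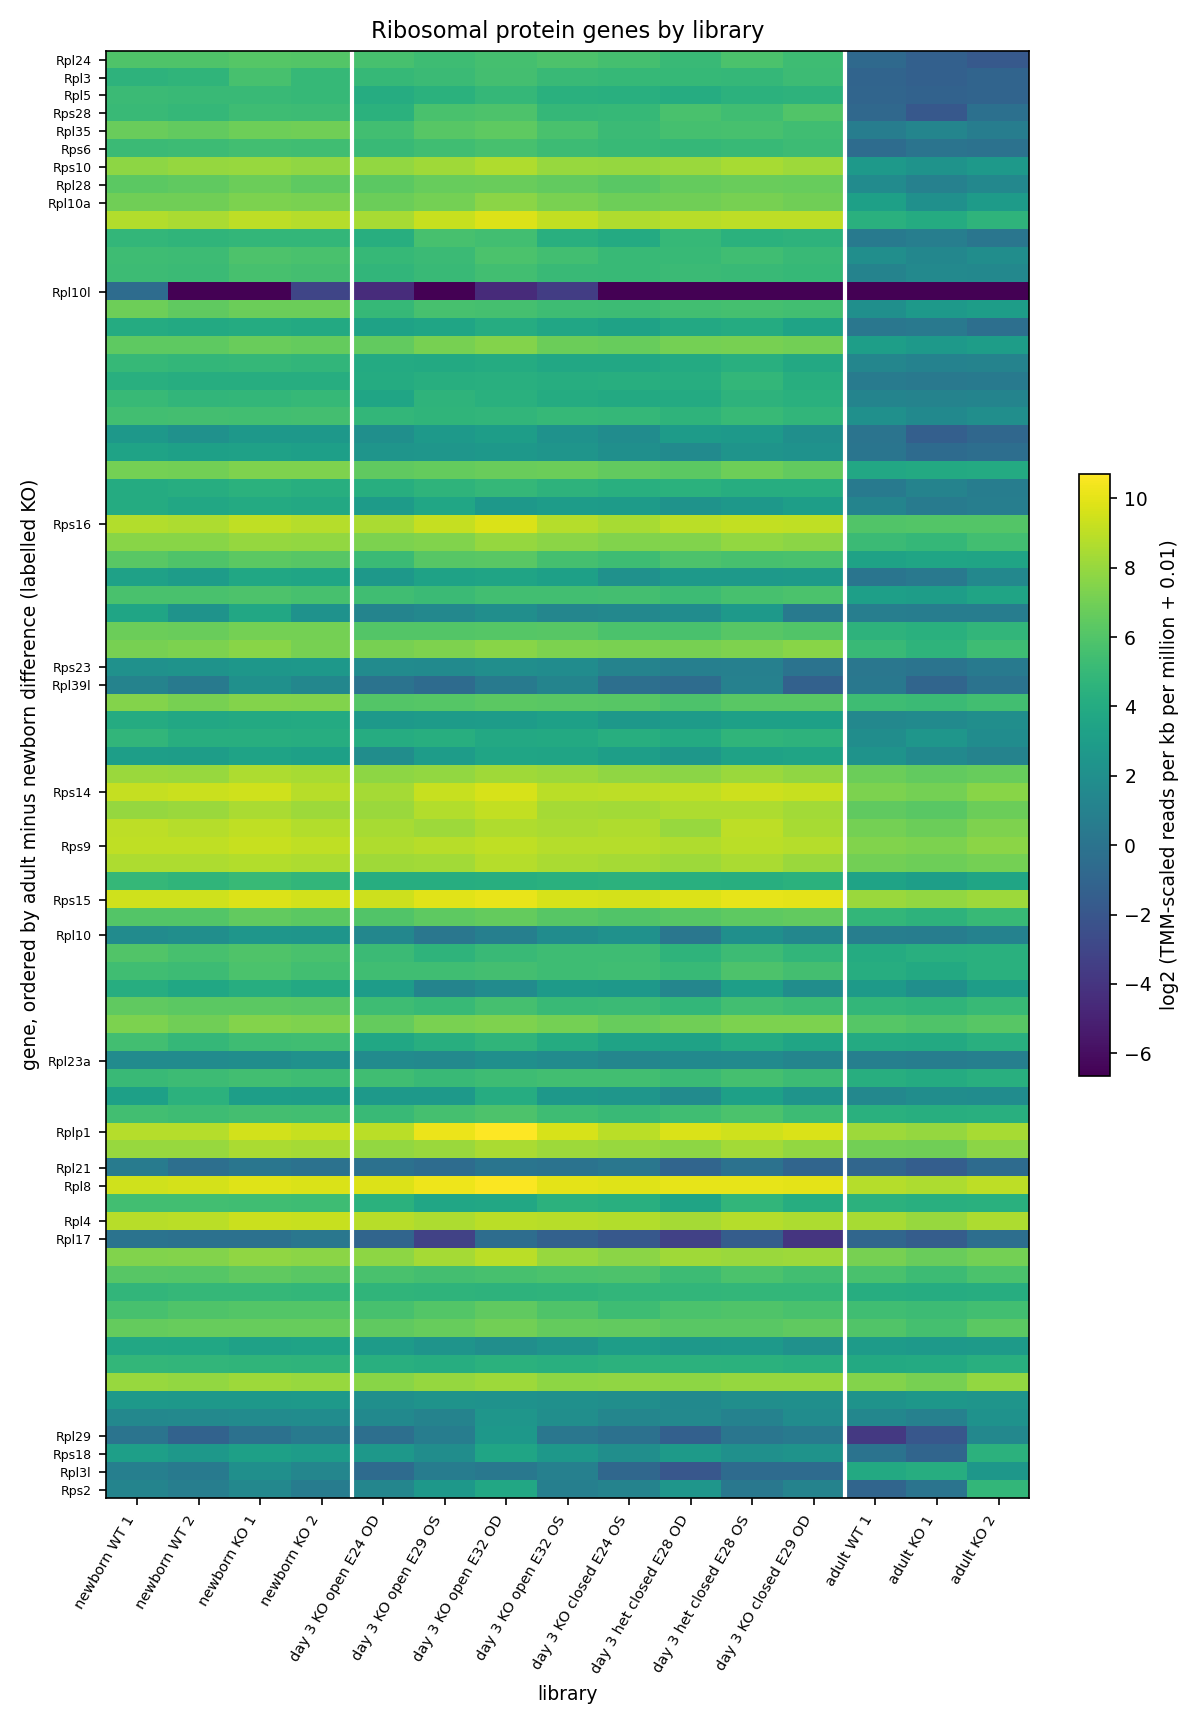
Level of the ribosomal protein genes described here (rows, ordered by the adult minus newborn difference in the labelled knockouts, with some of the named genes labelled) in each library (columns), as log2 of CPM per kb plus 0.01. The 3 adult columns at right are darker than the others in most rows, and the last rows hold the members that were not lower.

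Between adult and newborn labelled knockouts, 69 members were lower and 1 was higher at an adjusted p under 0.05 (edgeR's quasi-likelihood test, Benjamini-Hochberg). Over all genes tested, 17% were called lower and 14.3% higher. The median log2 difference was -1.89 over the members and -0.01 over all genes. Of the core proteins of the large subunit, 36 of 43 fell with a median of -2.12, and of the small subunit 26 of 31 fell with a median of -1.89. Of the stalk proteins, Rplp0, which anchors the acidic pair, fell by 1.79 ± 0.28 (SE) and Rplp2 fell by 0.86, while Rplp1 had -1.17 and did not pass (adjusted p = 0.055).

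The largest fall was that of Rpl24, a large subunit protein at the bridge to the small subunit. Its CPM was 41.5 and 40.7 in newborn wild types and 48.1 and 45.9 in newborn labelled knockouts, and 23.7 to 38.8 at day 3 with a median of 32.7. In adults it was 0.413 in the wild type and 0.264 and 0.185 in the labelled knockouts. All adult libraries lay far below the others, which did not reach under 23.7. The log2 difference between adult and newborn labelled knockouts was -7.68 ± 0.27 (SE, adjusted p = 7.07e-06, edgeR), on 6 and 4 reads in the adult pair.

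Other proteins of the large subunit with very low adult reads were Rpl3, which lies close to the peptidyl transferase centre, and Rpl5, which binds 5S ribosomal RNA and the p53 regulator Mdm2. Rpl3 had a CPM of 67.3 and 42.4 in the newborn labelled knockouts and of 0.528 and 0.648 in the adult ones, a log2 difference of -6.54 ± 0.32 (SE). Rpl5 had 35.0 and 32.4 against 0.44 and 0.463, a difference of -6.21 ± 0.26. Rpl11, the partner of Rpl5 on 5S RNA, had 18.2 and 16.2 against 1.23 and 1.30, a difference of -3.76 ± 0.22. For each of these the adult wild type lay in the range of 0.505 to 1.47 CPM, apart from all newborn libraries. Rpl35, Rpl28 and Rpl10a fell too, with log2 differences of -5.91, -5.41 and -4.72. Rpl38, whose loss alters the axial skeleton in mice, had 7.10 and 6.68 CPM against 2.02 and 1.30 and fell by 2.05 ± 0.35 (adjusted p = 0.00323, edgeR).

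In the small subunit, Rps28, Rps6 and Rps10 were among the members that fell most. Rps6 is the substrate of the S6 kinases and a common readout of mTOR activity. Its CPM was 51.5 and 53.3 in newborn wild types and 62.5 and 57.2 in newborn labelled knockouts. It was 0.963 in the adult wild type and 1.41 and 1.30 in the adult labelled knockouts, and 41.5 to 72.1 at day 3 with a median of 50.9. Adult and younger libraries did not overlap, and the log2 difference was -5.46 ± 0.21 (SE, adjusted p = 9.74e-06, edgeR). Rps10 fell by 5.43 ± 0.26. Rps28 fell by 6.09 ± 0.56, with only 2 and 6 reads in the adult labelled knockouts. Rps19, mutated in Diamond-Blackfan anaemia in humans, fell by 1.49 ± 0.21, Rpsa, also known as a laminin receptor, by 3.44 ± 0.24, and Rps27a, made as a fusion with ubiquitin, by 3.20 ± 0.31. In all, 28 members had a log2 difference below -3, among them Rpl10l on 3 reads, of 699 such genes among all tested, and 9 had one below -5, of 217.

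Members with the highest levels per kb over all libraries were Rpl8, Rps15, Rplp1, Rps14, Rpl4, Rps9 and Rps16. Rpl8, a large subunit protein near the catalytic centre, had 803 and 726 CPM against 329 and 429, a difference of -1.01 ± 0.25 (SE, adjusted p = 0.0171, edgeR). Its level per kb was 811 ± 96.4 in newborns (SD, n = 4) and 440.0 ± 58.0 in adults (SD, n = 3). Per kb, Rpl24 had a level of 64.9 ± 5.21 in newborns and 0.423 ± 0.17 in adults, and Rps6 one of 40.3 ± 3.49 and 0.877 ± 0.166, with the same n. The lowest members per kb over all libraries were Rps23, Rpl23a, Rpl10, Rpl39l, Rpl29, Rpl21, Rpl17 and Rpl10l, and 10 members had a library with fewer than 10 reads. Some of these transcripts share much of their sequence with other loci, as measured further below. The share of 50-base windows was 92.1% in Rpl10 and 82.6% in Rpl23a, but 26.2% in Rpl21 and 0% in Rpl39l. The part of shared sequence in these levels was not tested.

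Of the 15 members that did not pass in either direction, Rps2, Rps18 and Rpl29 had positive differences that rested on adult labelled-knockout replicate 2. Rps2, which lines the messenger RNA entry, had 28.4 CPM there, 1.01 in the other adult labelled knockout, 0.505 in the adult wild type and 1.58 to 2.73 in newborns. Its log2 difference was 2.77 ± 1.22 (SE, adjusted p = 0.122), and -1.09 without that replicate. It passed without the other adult labelled knockout (3.72) and with DESeq2 (2.81). Rps18 had 11.7 CPM in that library and 0.264 and 0.505 in the other adults, a difference of 0.42, and -4.07 without it (adjusted p = 0.011, edgeR). Rpl29 had 1.94 CPM there and 0.0459 and 0.176 in the other adults, a difference of 0.38, and -2.19 without it. Rps15a and Rps12 had differences of -0.17 and -0.07 and did not pass.

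**Figure D3:**
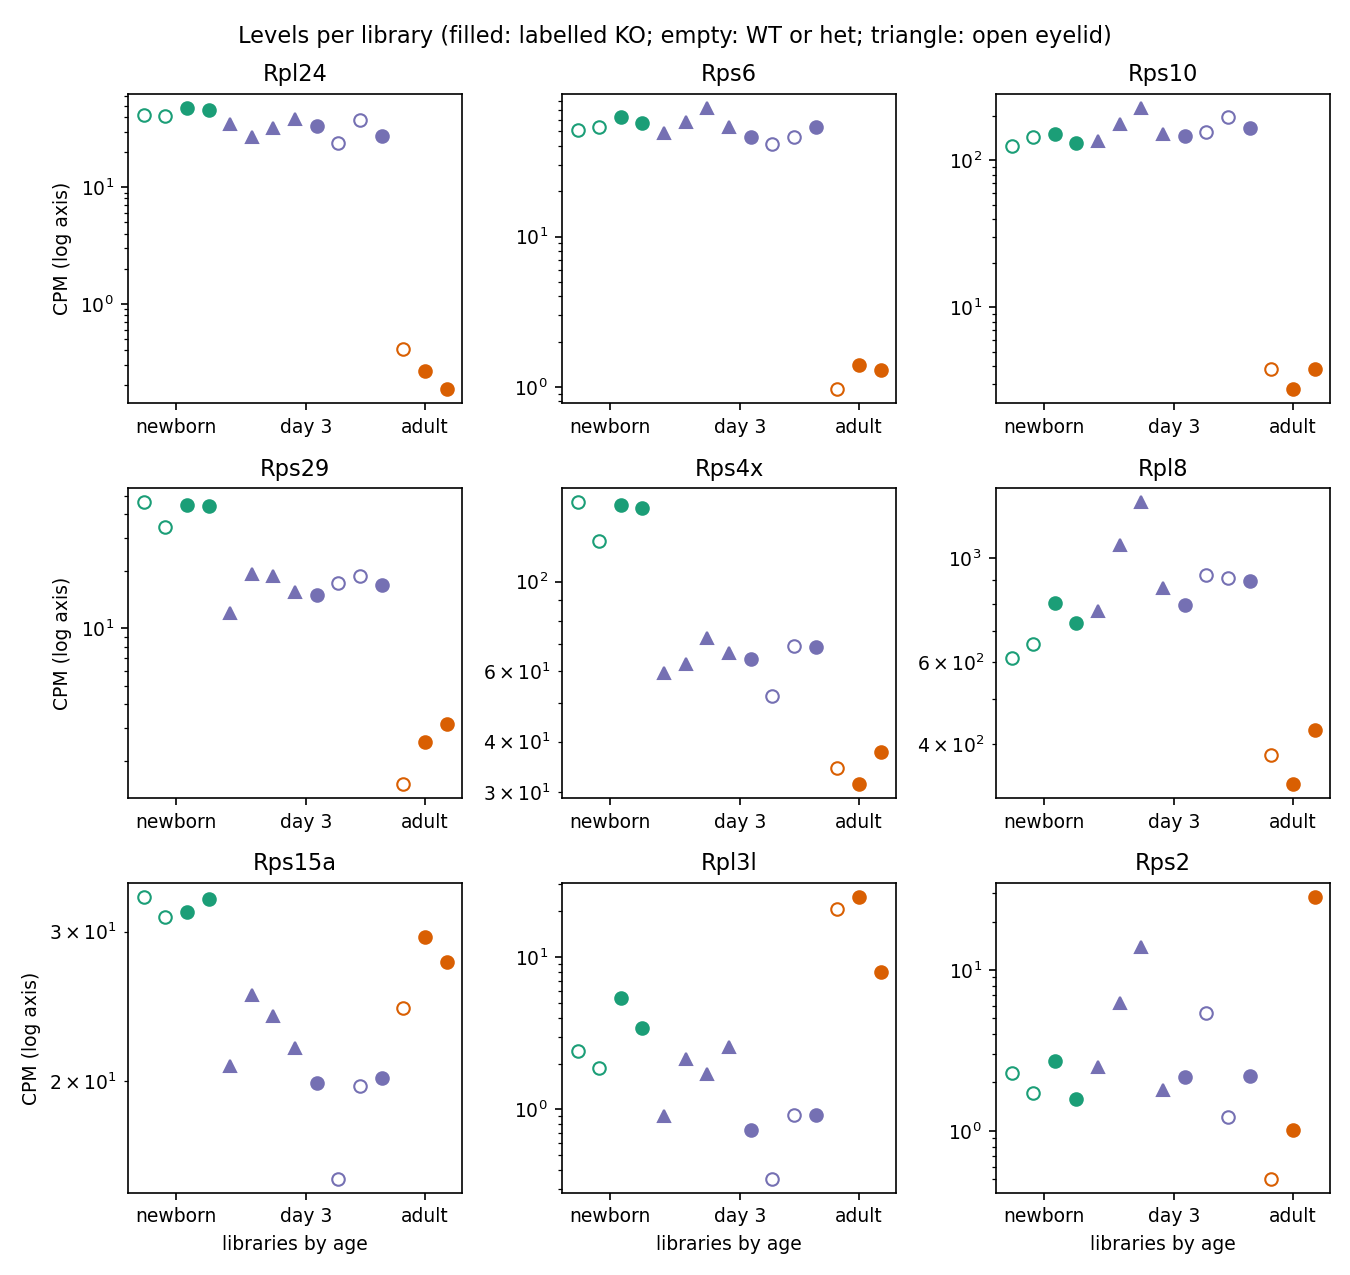
CPM of 9 ribosomal protein genes in each of the 15 libraries (log axis, a different range in each panel), with newborns at left, day 3 in the middle and adults at right. Filled symbols are labelled knockouts, empty ones wild type or heterozygous, and triangles open eyelids. Rpl24, Rps6 and Rps10 drop in all 3 adults, Rps29 and Rps4x are lower at day 3 and lowest in adults, Rpl3l is high in adults, and Rps2 is high in 1 adult.

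Among the paralogs, Rpl3l went the other way. Rpl3l replaces Rpl3 in ribosomes of skeletal and heart muscle. Its CPM was 20.8 in the adult wild type and 24.8 and 7.96 in the adult labelled knockouts, against 2.43 and 1.88 in newborn wild types and 5.40 and 3.42 in newborn labelled knockouts. Adult libraries lay above all others, and day 3 libraries had 0.351 to 2.56 with a median of 0.917. The difference was 1.89 ± 0.60 (SE, adjusted p = 0.0426, edgeR) in the labelled knockouts and 3.26 ± 0.70 (adjusted p = 0.0122) in the wild types. The first call was lost without adult labelled-knockout replicate 1 (0.85), any 1 newborn library (1.54 to 2.26) or mouse E29 (1.86) and with only the groups compared (1.90), and the second without either newborn wild type (3.07 and 3.46). Of 10 skeletal muscle markers, 1 was called higher and 4 lower between adult and newborn labelled knockouts, with a median log2 difference of -0.52. The list includes the developmental myosin genes Myh3 and Myh8, so it need not follow the amount of muscle. Between the lone adult wild type and the newborn wild types the median was 0.88. Their sum was 3409 CPM in the adult wild type and 2073 to 2717 in newborn wild types. In labelled knockouts it was 1137 to 3531 in adults and 5480 to 6704 in newborns. At day 3 it ran from 1699 to 7905, and the part of these markers in the result was not tested.

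Rpl36al, an intronless paralog of Rpl36a, fell by 3.45 ± 0.17 and its partner by 3.76 ± 0.33. Rps27l, a paralog of Rps27 induced by p53, fell by 1.01 ± 0.20, and Rps27 fell by 2.62 ± 0.52. Rpl39l fell by 2.22 ± 0.70 (adjusted p = 0.043, edgeR) and Rpl39, at the exit tunnel, by 1.24 ± 0.33. Rpl22l1 had a difference of -1.40 ± 0.51 and did not pass (adjusted p = 0.0685), while Rpl22 fell by 0.85 ± 0.20. Rpl10l, a testis paralog, had 15 reads in newborn wild-type replicate 1 and between 0 and 3 in the other adult and newborn libraries. Its fold changes enter the totals, the figures and the recomputed ranges, but rest on these few reads. Rpl7l1 fell by 0.74 ± 0.14, and Rps19bp1, a nucleolar regulator of Sirt1, by 0.55 ± 0.18 (adjusted p = 0.0491). The calls of Rpl39l, Rpl39, Rpl22 and Rps19bp1 were lost without single adult or newborn libraries, and that of Rpl39l also with a replicate block. The call of Rps19bp1 was lost in 9 settings that leave out a library or mouse, where it ran from -0.73 to -0.39. It was also lost with size factors, the authors' library totals, no filter, a mean of at least 5 RPKM, a replicate block and only the groups compared, where it ran from -0.55 to -0.46. The difference between core members and paralogs was not tested.

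The age step in the wild type used other libraries, with the lone adult wild type assumed to vary like the other groups. There 59 members were lower and 1 higher, with 11.4% of all genes called lower and 13.8% higher, and the member median was -2.01 against -0.08 over all genes. Of the 59, 58 were also lower in the labelled knockouts, the exception being Rpl30. The same overlap over all genes is not given here, so this overlap cannot be read as particular to the members. Across the 85 members the log2 differences in the 2 genotypes had a Pearson correlation of 0.875 and a Spearman correlation of 0.868. These correlations describe genes that are not independent and share 1 fit. Rpl24 and Rpl5 were among those that fell most, with log2 differences of -6.63 and -6.15. The genotypes differed by more than 1 on the log2 scale in 10 members, among them Rps2, Rpl29 and Rps18. The newborn genotype effect was also subtracted from the adult one, which includes the lone adult wild type. The resulting log2 difference ran from -1.70 to 4.76 over the members, with a median of -0.17. The median over all genes was 0.06, and these values do not show that the genotypes were alike.

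**Figure D4:**
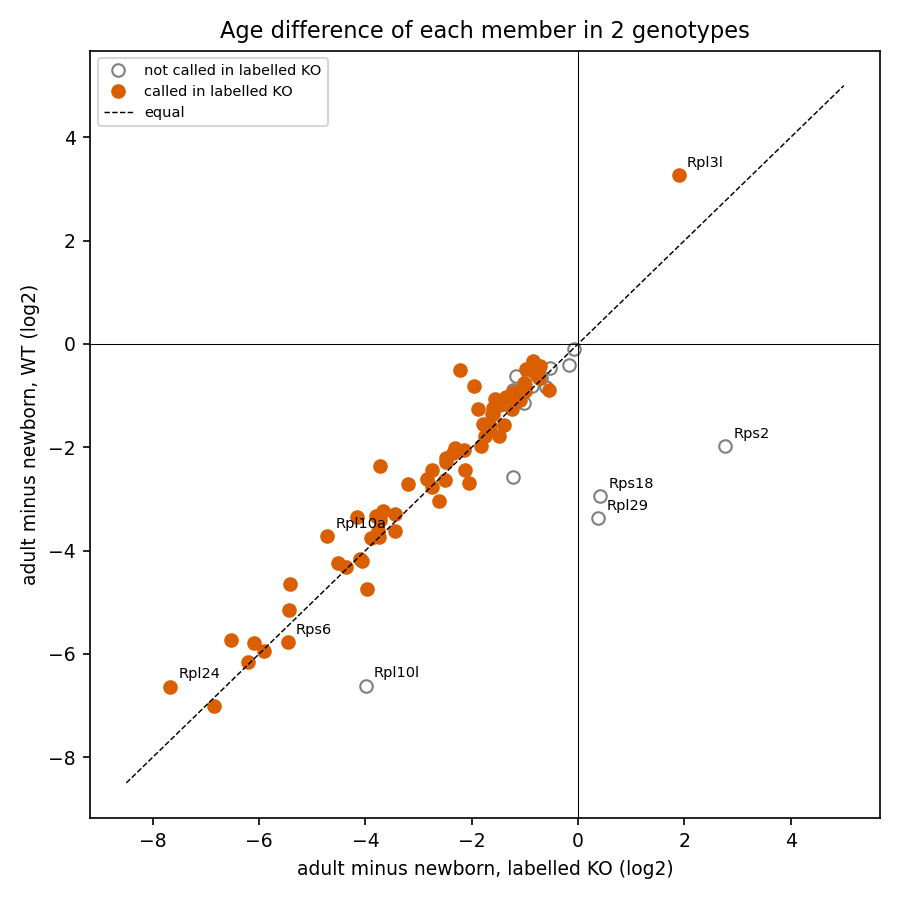
Log2 difference between adult and newborn libraries for each of the 85 members in labelled knockouts (horizontal) and in wild types (vertical), with members called in labelled knockouts filled and the dashed line marking equal values. Most points lie near the line, Rps2, Rps18 and Rpl29 lie to its right, and Rpl10l rests on very few reads.

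Between day 3 and newborn labelled knockouts the differences were smaller and more uneven. A total of 17 members fell and none rose, where 6.7% of all genes were called lower and 11.1% higher. An unadjusted p under 0.05 was found in 31 of the 85 members and in 6650 of all 17980 genes. DESeq2 called 1 member higher, and 3026 of all genes. The member median was -0.34 and that of all genes -0.08. Among the called members described here, the largest falls were those of Rpl22l1, Rps29, Rpl39, Rps4x, Rps27l, Rpl35, Rpl23, Rps24, Rpl31 and Rpl11. The lowest difference of any member, called or not, was -1.83. Of the 6 paralogs, 3 were among the 17. All 3 stalk proteins had positive differences, up to 0.47, that did not pass.

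Rps29, a zinc-binding protein of the small subunit, had 44.5 and 44.3 CPM in newborn labelled knockouts and 12.02 to 19.3 in the 6 day 3 labelled-knockout eyes, with a median of 16.2. The groups did not overlap, and the log2 difference was -1.44 ± 0.20 (SE, adjusted p = 0.0083, edgeR). Rps4x, the X-linked small subunit protein, had 155 and 153 CPM against 59.4 to 72.4 with a median of 65.3, a difference of -1.23 ± 0.16 (adjusted p = 0.00688). Rpl22l1 had 8.46 and 6.65 CPM against 1.06 to 3.76 with a median of 2.28, a difference of -1.66 ± 0.44 (adjusted p = 0.0388, edgeR), a call lost without any 1 newborn library or mouse E29, with a replicate block (adjusted p = 0.0646), with open eyes only (0.0601) and with only the groups compared (0.0786). Of the 17, 15 were also lower in adults, and the exceptions were Rpl22l1 and Rps15a. These 2 comparisons share the newborn libraries, and the same overlap over all genes is not given here. The count rested on single libraries, as did that over all genes. Without newborn labelled-knockout replicate 1, 0 members and 0 of all genes were called lower, and without replicate 2 these were 6 and 232, against 17 and 1204 with all libraries. They were 10 and 657 or 10 and 756 without a newborn wild type, 7 and 377 without mouse E29 and 32 and 3449 without mouse E32. Newborn labelled-knockout replicate 1 is the library with low lens markers.

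Between adult and day 3 labelled knockouts, 61 members were lower and 2 higher. Over all genes 25.7% were called lower and 24.4% higher, and the medians were -1.41 for members and 0.07 for all genes. The log2 differences of Rpl24, Rpl3 and Rps28 were -7.14, -6.40 and -6.25. Rpl3l rose by 3.44 ± 0.54 (SE, adjusted p = 0.0013, edgeR). Rps15a had 29.5 and 27.6 CPM in adults and 19.9 to 25.3 with a median of 21.4 at day 3, groups that did not overlap, and a difference of 0.37 ± 0.13 (adjusted p = 0.0494, edgeR). That call was lost without either adult labelled knockout (0.32 and 0.41), without 3 of the 4 newborn libraries (0.37 to 0.38) and without mouse E24 (0.32). It was also lost without a filter, with the longest transcript, a replicate block, open eyes only or only the groups compared (0.32 to 0.39). Means over all libraries of an age, with genotypes pooled, were also compared. The day 3 mean per kb of the members lay between the newborn and adult means for 52 of 85, above the newborn mean for 25 and below both for 8. The same counts over all genes are not given here.

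The genotype labels went with no called difference among the members. For newborn labelled knockouts against wild types, 0 members passed where 6.33% of all genes were called higher and 2.86% lower. The median was 0.17, 2 members (Rpl3 and Rps20) and 5442 of all genes had an unadjusted p under 0.05. DESeq2 called 0 members, and over all genes 2464 higher and 1779 lower. The calls over all genes rested on the newborn libraries, with 0 in either direction without either newborn wild type, without newborn labelled-knockout replicate 1, without mouse E29 or with a replicate block, and 0 higher and 6 lower without newborn labelled-knockout replicate 2. The 0 among the members was therefore read against a background that single libraries decide. Rpl3 had the smallest p, with 67.3 and 42.4 CPM against 31.9 and 36, a difference of 0.68 ± 0.24 (SE, adjusted p = 0.098, edgeR). Rpl30 had 13.2 CPM in newborn wild-type replicate 2 and 4.69 to 5.28 in the other newborns.

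In adults, 0 members passed for labelled knockouts against the lone wild type, where 0% of all genes were called in either direction, 2 members (Rps2 and Rps29) and 251 of all genes had an unadjusted p under 0.05, and DESeq2 called 0 members, and 32 of all genes higher and 4 lower. At day 3, 0 passed for labelled-knockout mice against the lone heterozygous mouse, where 0% of all genes were called, 1 member and 751 of all genes had an unadjusted p under 0.05, and DESeq2 called 0 members, and 105 of all genes higher and 11 lower. Neither comparison shows that the genotypes were alike.

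Between open and closed eyes at day 3, 1 of the 83 members in the fit was called higher and 0 lower (edgeR with the mouse as a block). Of all 15159 genes tested, 0.488% were called higher and 0.0594% lower. The median over the members was 0.03. Only E24 and E29 inform this contrast within a mouse, and the count was 0 without either of them. Among members that did not pass, Rpl36, a large subunit protein, had 1.47 and 3.14 CPM in the open eyes of E24 and E29 against 3.47 and 4.66 in their closed eyes. The open eye was the lower one in both mice, and the log2 difference was -0.88 ± 0.45 (SE, adjusted p = 1, edgeR). In E32 both open eyes had more, with 4.85 and 4.63 CPM, and in the heterozygote the closed eyes had 2.38 and 4.07, so open and closed eyes overlapped. Basal epidermis markers moved with eyelid state, with a sum of 4073 to 11540 CPM in open and 1309 to 1746 in closed labelled-knockout eyes and 1949 to 2610 in the heterozygote, and their part in the count was not tested. Rpl10l and Rpl17 did not reach the read minimum there.

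Other genes of the translation machinery moved with age in part. Of the core ribosomal proteins whose symbols fall outside the name rule, Fau had 2.99 and 3.42 CPM in adult labelled knockouts against 180 and 147 in newborn ones. Its log2 difference was -5.67, and Gnb2l1 (Rack1) had -0.83 and did not pass (adjusted p = 0.0675, edgeR). Of 20 other terminal oligopyrimidine genes, 15 fell and 1 rose between adult and newborn labelled knockouts. Over all genes, 17% were called lower and 14.3% higher there. Tpt1 had a difference of -3.02, the nucleolar protein Npm1 one of -1.52 and the elongation factor Eef1a1 one of -1.14. Of 32 ribosome biogenesis genes 14 fell and none rose in that comparison, with a median of -0.44. Between adult and newborn wild types the medians of these 2 lists were -0.66 and -0.44. Between day 3 and newborn labelled knockouts, 8 biogenesis genes were called higher and 1 lower. Of the terminal oligopyrimidine genes 0 were called higher and 3 lower there, against 11.1% and 6.7% of all genes.

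The 75 mitochondrial ribosomal protein genes, which encode a separate ribosome, had a median difference of -0.36 between adult and newborn labelled knockouts. Of these, 23 were called lower and 0 higher, against 17% and 14.3% of all genes. In the same comparison all 17 proliferation markers tested fell, with a median of -2.55, and all 10 rod markers rose. Proliferation markers summed to 193 to 303 CPM in adults, 1051 to 1527 in newborns and 1185 to 2419 at day 3, and their part in the members' result was not tested.

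A list of 28 other genes with many processed pseudogenes also fell between adult and newborn labelled knockouts, with a median of -1.50. Of these, 21 were called lower and 1 higher, against 17% and 14.3% of all genes. Ppia, a peptidyl-prolyl isomerase, had 0.308 and 0.231 CPM in adult labelled knockouts against 16.4 and 23.1 in newborn ones. Gapdh, a glycolytic enzyme of every cell, stood between 1.05 and 2.94 CPM in all 15 libraries. How reads that match several places were assigned is not given in the sources used here.

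The sequence shared with other loci was measured on reference transcripts (GENCODE M21, GRCm38), a measure chosen after the age differences had been seen. A median of 50.1% of the 50-base windows of a member's transcript occurred exactly in the transcripts of a gene at another locus, over the 84 members with a match. The median was 34.7% in the pseudogene-rich list and 0% in the mitochondrial ribosomal proteins. The 36-base windows of the coding sequence below are those found at the largest number of other loci, leaving out windows also found on a chromosome not shown here, and stand for coding sequences of members that fell far.
Rpl24 (chromosome 16), found at 5 other loci: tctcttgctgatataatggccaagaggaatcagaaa
Rps6 (chromosome 4), found at 14 other loci: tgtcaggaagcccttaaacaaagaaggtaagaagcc
Rpl24 and Rps6 had 0 coding windows that occurred nowhere else, of 436 and 712. Rpl8 had 659 of 736 and Rpl3l 1186 of 1186. Rps12 and Rpl15, whose adult minus newborn differences of -0.07 and -0.60 did not pass, had 0 of 361 and 0 of 577. Rps10 and Rpl28, with differences of -5.43 and -5.41, had 58 of 427 and 47 of 219. Rps15a had 26 of 355, while only 6.14% of the 50-base windows of its whole transcript were shared.

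The age difference was also set against the share of such windows, in ranges chosen after the values were seen. The median log2 difference between adult and newborn labelled knockouts was -0.97 in 15 members with under 25% of 50-base windows shared, -1.83 in 27 with 25 to under 50%, -2.34 in 22 with 50 to under 75% and -3.15 in 20 with 75% or more. Across the 84 members the Spearman correlation with that difference was -0.33, and it was -0.28 with 36-base and -0.36 with 75-base windows. For 17 of the 84 members the reference transcript differed by more than 10% from the exon length in the files, among them Rps6, Rpl35, Rpl28, Rps16 and Rps23, and over the other 67 the correlation at 50 bases was -0.31. With the difference between day 3 and newborn it was, over all 84, 0.15, 0.18 and 0.10. With the adult level per kb, as log2, it was -0.46 at 50 bases, against -0.28 in newborns and -0.23 at day 3. These are descriptions over genes that share libraries and fit, and the part of shared sequence in the age differences was not tested.

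**Figure D5:**
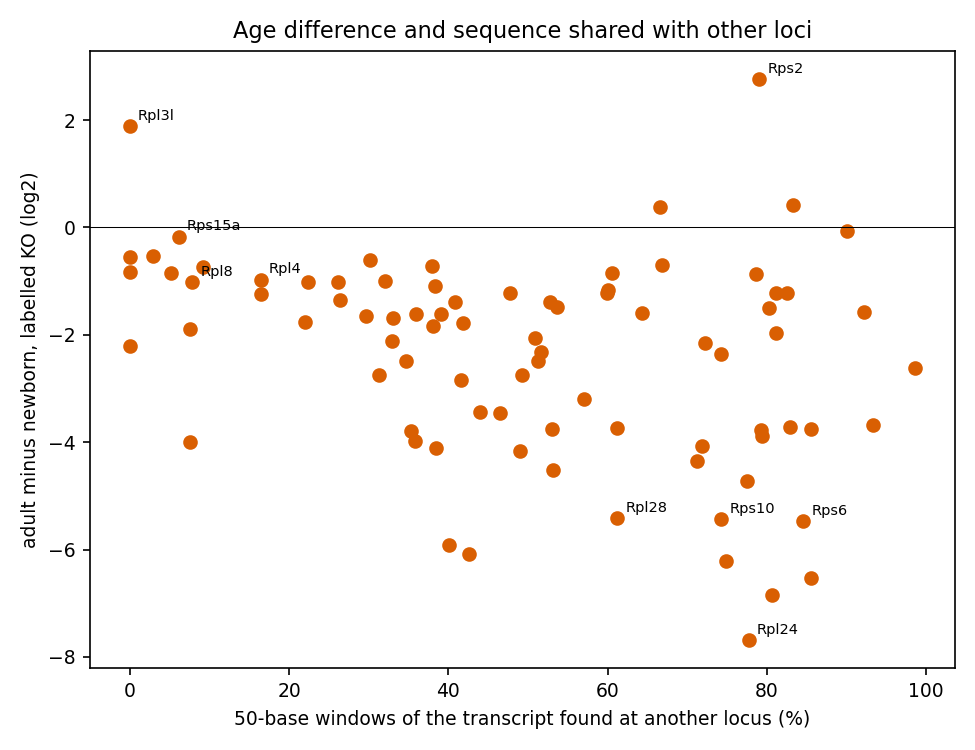
Percentage of 50-base windows of each member's reference transcript that occur at another locus (horizontal) against the log2 difference between adult and newborn labelled knockouts (vertical), 1 point per member for 84 members. Points below -5 all have at least 40.1% of windows shared, and points with high shares spread over the whole vertical range.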

How the data were processed

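Per the labels' protocols, poly(A) RNA was turned into double-stranded cDNA libraries, with no step recorded that marks strand, and amplified for 18 cycles of PCR. The submitters' processing notes name CASAVA 1.8, Bowtie 0.12.9, TopHat2 2.0.11, SAMtools and build mm8, and the counter, annotation and treatment of multiple matches are not given in the sources used here. The authors deposited read counts, exon length and RPKM values for 24373 RefSeq transcripts per library. RPKM served only to recover the authors' library totals. Members, lists, tests and the naming rule were chosen with earlier results of these data known.

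Counts were fitted in R 4.3.3 with edgeR 4.0.16 (TMM, filterByExpr, quasi-likelihood test, Benjamini-Hochberg over all genes). One fit held 11 units in 6 groups, with both eyes of a day 3 mouse summed and lone units (adult wild type, heterozygous mouse) assumed to vary like the others. The 8 day 3 eyes had a fit with mouse as a block. The SE is the log2 difference divided by the root of F. Named were the 10 largest called changes per direction, the 3 smallest p-values where fewer than 3 passed, the 8 highest and lowest levels, paralogs with partners, low or widely ranging members and members with known further roles, apart from some genes that are not reported here although they count in every total. Rps12, Npm1, Eef1a1 and Gapdh fall outside it and were chosen after their values were seen, as were the window and start-site measures, the genes whose sequences are shown, the limits of -5 and -3 and the genes plotted. Checked on simulated data, the shared fit called more false genes than its threshold when the eyes of a mouse varied independently. The rate was close to the threshold when they shared the mouse's spread, a simulation added after the excess was seen. Both simulations gave all groups much the same spread, whereas the dispersion here ran from 0.0135 to 0.152. The simulated rates may therefore not hold here, and calls near 0.05 are weak. DESeq2 1.42.0 was an alternative. Window shares came from GENCODE M21 transcripts nearest in length, and for 17 of the 84 members that length was more than 10% off the length in the files. The relation without them was computed after seeing the data.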

Additional observations from a re-analysis of the deposited data

Results flagged for a closer look

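Among the 4 open eyes at day 3, 2 members described here, Rpl29 and Rpl30, had 1 eye far from the others, each time the right eye of E32, whose other eye is also among the 4. Chance alone flags about 1 in 20 such groups. Every member described here, of 85 in all, was searched in this way, so a few flags would arise by chance. Rpl29 had 4.43 CPM there against 0.564 to 1.13 in the other 3 eyes. Rpl30, a large subunit protein, had 10.0 CPM (10.01) against 3.48 to 3.61. Rps2 and Rplp1 were also highest in that eye, with 13.8 and 785 CPM.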

How the results depend on the processing

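Each count was recomputed with other scalings, filters, tests, transcripts, subsets and without each library or mouse. Members lower in adult than newborn labelled knockouts stayed between 57 and 73, and those lower in adult than newborn wild types between 44 and 72. Members lower at day 3 than in newborns, 17 by the main test, were 27 with DESeq2, 35 with closed eyes only, 2 with only the groups compared in the fit and 0 to 32 with a library or mouse left out. Genes called lower moved with them, from 1204 to 1898, 3988, 21 and 0 to 3449. The dispersion over all genes was 0.152 in day 3 knockout mice, 0.0766 in adult and 0.0665 in newborn labelled knockouts and 0.0135 in newborn wild types. Over 81 members it was 0.058, 0.148, 0.0151 and 0.0266, and the causes were not tested.

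Members higher in adult than newborn labelled knockouts (1) were 0 at a mean of at least 5 RPKM, 2 with DESeq2, 0 with only the groups compared and 0 to 1 with a library or mouse left out. Higher at day 3 than newborn (0) was 1 with DESeq2 and 1 with open eyes only. Higher in adult than day 3 (2) was 1 without a filter, 0 at 5 RPKM, 1 with the longest transcript, 1 with open eyes only, 1 with only the groups compared and 1 to 3 with a library or mouse left out. Higher in adult than newborn wild types (1) was 0 at 5 RPKM and 0 to 1 with a library left out, and higher in open than closed eyes (1) was 0 to 1.

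With single libraries left out, Rps2 ran from -1.09 to 3.72 against newborn and from -2.29 to 2.53 against day 3, Rps18 from -4.07 to 1.39, Rpl29 from -2.19 to 1.25 and Rpl10l from -5.02 to 0, all for adult knockouts. Turned in sign were Rps2 without adult knockout replicate 2 (-1.09 against newborn, -2.29 against day 3), Rps18 without it (-4.07) and with a replicate block (-0.12), and Rpl29 without it (-2.19). Rpl36 was 0.03 for open against closed without the mouse block, and Rpl10l was 0 without newborn knockout replicate 2. The causes were not tested. Of the other recomputed differences of named genes, 1619 kept their side of the threshold, 82 lost the call and 9 gained it, and 2 had no adjusted p. The authors' library totals moved the median of all genes to -0.30 for day 3 against newborn and 0.34 for adult against day 3, with member medians of -0.56 and -1.16. They turned the calls over all genes from 2003 higher and 1204 lower to 806 and 1640 for day 3 against newborn, and from 4385 and 4625 to 5453 and 3237 for adult against day 3. Newborn knockout against wild type had 1138 and 514 calls, and 866 and 617 with size factors.

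Replicate numbers 1 and 2 are shared by newborn and adult knockout groups. Differences between replicates correlated at 0.0221 across genes for newborn wild types and knockouts, and at 0.131 for newborn and adult knockouts. The labels give no link beyond the number. These correlations cannot tell whether libraries of the same number were made together, since other differences between replicates also enter them. With a replicate block, members lower at day 3 than newborn were 11, members higher in adult than day 3 were 1, and members lower in adult than newborn knockouts were 64. Members with few adult reads, such as Rps28 and Rpl24, are limited by depth.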
